A study of Mus musculus with 2 samples.

Results

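The proteins on the inner face of the desmosome, the junction that ties epithelial cells together and anchors their keratin filaments, were examined in tooth and skin through 10 genes, namely Dsp, Jup, Pkp1, Pkp2, Pkp3, Perp, Evpl, Ppl, Eppk1 and Scel. They were found by gene symbol among the non-control spots of both arrays, and they were 10 of 24323 named genes, read by 12 probes. The rule used symbols and no measured value. Tooth and skin were taken from wild-type (WT) mice at postnatal day 0 (P0), with no allele or treatment named for either tissue, and their RNA was hybridised to 1 single-colour array per tissue. The study set wild-type tooth beside skin while asking whether hair that forms in teeth lacking Sox21 reflects a change of tooth cell fate. The labels gave P0, whereas the study's methods described a stage 1 day later, and how many animals stood behind each array was not stated. Tooth germ and skin both mix epithelium with mesenchyme, so that in these bulk samples fewer cells of a type and less RNA per cell cannot be told apart. With 1 array per tissue, no difference had a replicate check and no test was possible.

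In a desmosome, cadherins of the desmoglein and desmocollin families span the gap between cells, and their tails bind the armadillo proteins plakoglobin (Jup) and the plakophilins (Pkp1, Pkp2 and Pkp3). Desmoplakin (Dsp) binds these armadillo proteins at one end and keratin filaments at the other, and Perp is a tetraspan membrane protein that desmosomes of stratified epithelia require. Envoplakin (Evpl) and periplakin (Ppl) are plakins that pair with each other and form an early scaffold of the cornified envelope, the cross-linked protein shell of dead surface keratinocytes. Epiplakin (Eppk1) is a plakin-repeat protein that binds keratin filaments, and sciellin (Scel) is a precursor that transglutaminases cross-link into the same envelope. Epidermis depends on these proteins against mechanical stress, and enamel epithelium also has desmosomes, between ameloblasts and the cells of the adjoining stratum intermedium.

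Sequences are shown where they bear on how the genes were measured or on the region just before their starts. The probes for desmoplakin disagreed in size, and the internal one is therefore printed with the plakoglobin probe, whose signal was low on the tooth array. Both are 60 bases, written as on the array, and each has at least 1 reading frame with no stop codon. Where a probe's codons fall was not looked up in a protein sequence. The internal Dsp probe aligned to mm9 chr13:38285480-38286579 (+ strand), a span of 1100 bases and so longer than the probe itself. The Jup probe lay at mm9 chr11:100238038-100238097 (- strand).
Dsp internal probe: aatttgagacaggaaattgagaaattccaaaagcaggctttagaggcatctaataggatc
Jup probe: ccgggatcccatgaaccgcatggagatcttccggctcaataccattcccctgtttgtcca

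Promoter sequence from RefSeq (GRCm38.p6) was at hand for 3 of the 10 genes, Dsp, Jup and Scel, and the 250 bases before each start are printed because 1 gene of each kind, linker, armadillo protein and envelope precursor, is then covered. Capitals mark any match, on either strand, to 4 motifs that do not overlap in the printed windows. A GC box, which Sp-family factors bind, was searched as GGGCGG. The site of AP-1, a factor of keratinocyte genes, was searched as TGANTCA, that of the Grhl (grainyhead-like) factors as AACCGGTT, and the TATA box as TATAAA. The Dsp promoter (chr13:38151044-38151293, + strand) held 4 GC boxes and 72.4% G and C. Jup (chr11:100397791-100398040, - strand) held 2 GC boxes and 62% G and C. In Scel (chr14:103513091-103513340, + strand) there was no GC box but 1 AP-1 match, TGACTCA, beginning 36 bases before the start, and 47.6% G and C.
Dsp promoter: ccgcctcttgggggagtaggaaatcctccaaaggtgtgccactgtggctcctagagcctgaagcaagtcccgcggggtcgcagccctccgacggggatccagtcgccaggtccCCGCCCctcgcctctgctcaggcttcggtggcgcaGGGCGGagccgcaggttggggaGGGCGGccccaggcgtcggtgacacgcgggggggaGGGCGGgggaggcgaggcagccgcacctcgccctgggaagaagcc
Jup promoter: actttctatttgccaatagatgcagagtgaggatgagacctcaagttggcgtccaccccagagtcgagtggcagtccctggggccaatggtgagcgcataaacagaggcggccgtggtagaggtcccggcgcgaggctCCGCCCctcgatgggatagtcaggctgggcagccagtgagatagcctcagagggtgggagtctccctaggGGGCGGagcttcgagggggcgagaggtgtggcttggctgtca
Scel promoter: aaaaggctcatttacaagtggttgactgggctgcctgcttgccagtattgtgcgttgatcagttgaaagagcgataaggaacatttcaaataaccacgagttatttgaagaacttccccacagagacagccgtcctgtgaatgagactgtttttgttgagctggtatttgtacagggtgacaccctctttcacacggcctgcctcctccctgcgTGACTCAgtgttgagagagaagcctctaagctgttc

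Among 32851 promoters of the same length, 32.7% held a GC box and 6.75% an AP-1 match, and the median content of G and C was 52.4%. The Grhl letters, which were present in 0.116% of all promoters, and TATAAA, present in 12.4%, were not found in these 3 windows. A match describes letters in the window only, not a bound site.

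All 10 genes were higher on the skin array than on the tooth array, and all 12 probes gave this direction. Among all named genes measured on at least 1 array, 8278 of 17409 were higher in skin. Levels are log2 intensities relative to each array's 75th percentile, so that 0 stands for a probe at that percentile, and differences are skin minus tooth on the same scale. Every one of the 12 probes was well above background on both arrays and none was saturated. At least 2-fold higher values in skin were found for 9 of the 10, against 14.2% of the 17409 named genes that were measured on at least 1 array. No member passed 2-fold in the direction of tooth, which held 15.5% of all genes. The median difference over the 10 genes was 2.25, beside -0.04 over all measured genes. The error given with each difference is the one estimated by the scanner software, which rests on a preset error of 10% per array and leaves out animals, dissection and labelling.

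**Figure D1:**
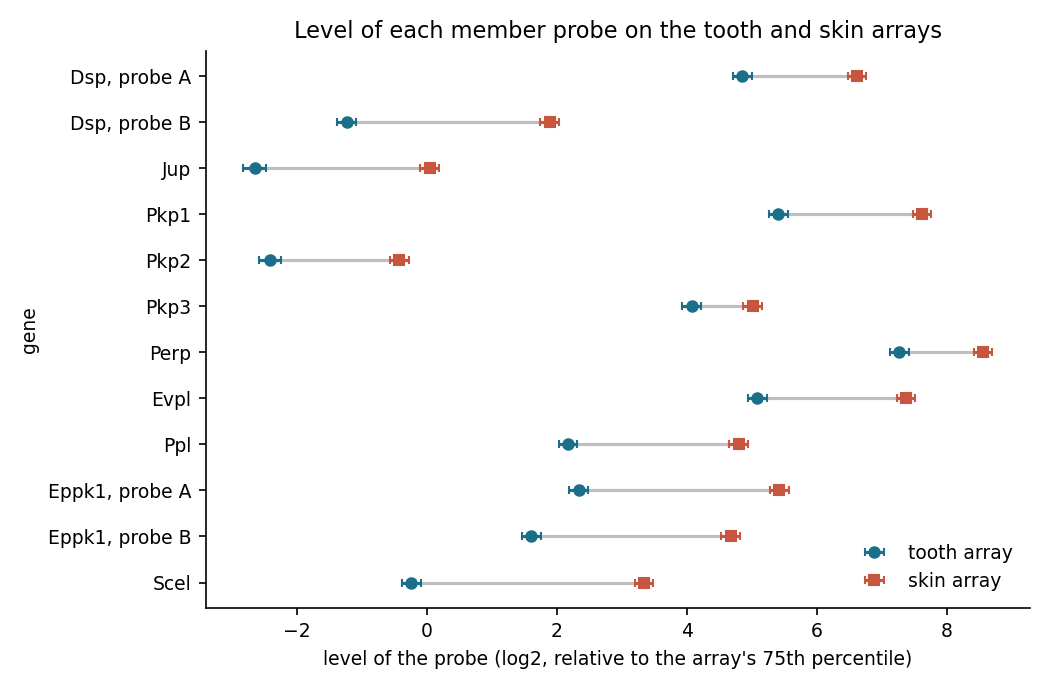
Level of each of the 12 probes on the tooth array (circles) and the skin array (squares), in log2 relative to the array's 75th percentile, with bars for the software error. The skin value lies to the right of the tooth value for every probe, from a gap of 0.94 for Pkp3 to 3.58 for Scel, and levels of different probes are not comparable with each other.

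Desmoplakin, the obligate link between the plaque and keratin, was read by a probe printed in 10 spots per array (mm9 chr13:38290121-38290180, + strand). Of these, 9 were kept on each array, 1 having been marked as an outlier. The tooth spots ran from 4.74 to 4.91 around a mean of 4.85, with an SD of 0.062. On the skin array the spots ran from 6.52 to 6.71 around 6.62 (SD 0.060). The spots of the 2 arrays therefore did not overlap, and the difference was 1.77 ± 0.20 (software error), a 3.41-fold higher value in skin. Spots of 1 array share its RNA and labelling, so their scatter is technical. The internal Dsp probe printed above went from -1.23 in tooth to 1.89 in skin, which is 3.13 ± 0.21 higher (8.72-fold). Both probes were higher in skin, but the gap between their differences was 1.36 (log2, 2.56-fold), more than the software error of either. Which transcripts each probe reads was not examined, and the size of the Dsp difference is accordingly uncertain while its direction was shared.

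Of the armadillo proteins, plakoglobin is the member that desmosomes share with adherens junctions. Jup was at -2.64 in tooth against 0.04 in skin, which is 2.69 ± 0.23 higher in skin (6.45-fold). The signal was low, with processed intensities of 68.4 and 284.9. Under a different background correction (normexp), the Jup difference was 1.90. Pkp2, the plakophilin known best from simple epithelia and heart, was also dim. It measured -2.41 in tooth and -0.42 in skin (1.99 ± 0.22, 3.98-fold), and 1.38 with normexp. Both dim genes thus kept their direction with a smaller difference.

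Pkp1 is the plakophilin of the suprabasal layers of stratified epithelia, where it strengthens adhesion. Its probe (mm9 chr1:137768027-137768086, - strand) measured 5.41 in tooth and 7.62 in skin, which is a difference of 2.21 ± 0.20 and 4.63-fold. Pkp3, which is found through all layers of the epidermis, was at 4.08 in tooth and 5.02 in skin (mm9 chr7:148276140-148276199, + strand). With a difference of 0.94 ± 0.20 (1.92-fold), Pkp3 was the only gene of the 10 within 2-fold, and the software error around it reached past 2-fold. Over the 4 armadillo members the differences thus ran from 0.94 to 2.69, with a median of 2.10.

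Perp, described as a target of p53 and p63, gave a probe value of 7.27 in tooth and 8.55 in skin (mm9 chr10:18576697-18576756, + strand). The difference was 1.28 ± 0.20, or 2.43-fold. Processed intensities of 66111 and 103842 were measured without saturation on either array. A list of 10 other p53 targets was measured for comparison. Among these, the only one past 2-fold was Pmaip1, an inducer of cell death that was higher in skin by 3.08, and the list had a median of -0.33.

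The 4 cross-linking genes were all more than 4-fold higher in skin. The smallest of their differences, that of Evpl, was exceeded in the direction of skin by 6.35% of all measured genes. Evpl went from 5.08 in tooth to 7.37 in skin (2.29 ± 0.20, 4.89-fold, mm9 chr11:116081921-116081980, - strand). Its partner Ppl measured 2.17 and 4.80, which is 2.62 ± 0.20 (6.17-fold). The partners differed from each other by 0.33 in these differences, slightly above the software error of such a gap, 0.29. Eppk1 was read by a pair of probes that share 36 bases and are therefore no independent measurements. The probe with the higher signal (mm9 chr15:75931936-75931995, - strand) went from 2.34 in tooth to 5.42 in skin (3.09 ± 0.20, 8.50-fold). The overlapping probe went from 1.61 to 4.67 (3.06). Scel, the envelope precursor of stratified squamous epithelia, measured -0.24 in tooth and 3.34 in skin (mm9 chr14:104012445-104012504, + strand). Its difference of 3.58 ± 0.21 (12.0-fold) was the largest of the 10 genes and was exceeded in the direction of skin by 3.50% of all measured genes.

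In order of size, Scel was followed by Eppk1, Jup, Ppl, Evpl, Pkp1, Pkp2, Dsp, Perp and Pkp3. Of the 9 steps in this order, 5 were wider than the software error of the step. Jup and Ppl (0.07 apart), Evpl and Pkp1 (0.08), Pkp1 and Pkp2 (0.22), and Pkp2 and Dsp (0.22) were closer than that and have no firm order. The 6 plaque genes (Dsp, Jup, Pkp1, Pkp2, Pkp3 and Perp) had a median difference of 1.88 (0.94 to 2.69), and the 4 cross-linking genes had a median of 2.86 (2.29 to 3.58). In the main setting the overlap rested on the dim gene Jup, which lay above Evpl and, within the software error, Ppl. With the mean over a gene's probes, Dsp at 2.45 also lay above Evpl at 2.29, and the internal Dsp probe alone gave 3.13. With normexp Jup was at 1.90, and the highest plaque gene, Pkp1 at 2.10, lay below the lowest cross-linking gene, Evpl at 2.17. Evpl and Pkp1 have no firm order, so these values do not part the plaque genes from the cross-linking genes.

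**Figure D2:**
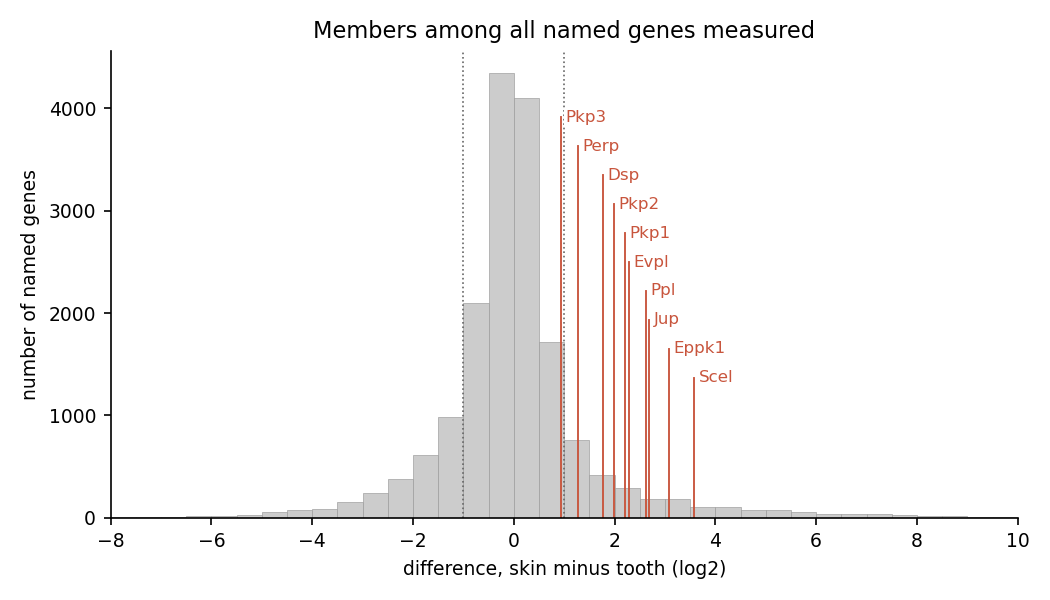
Number of named genes in each interval of 0.5 of the difference, skin minus tooth in log2, over 17409 measured genes, with the 10 members marked by lines whose heights carry no value and dotted lines at 2-fold (differences beyond -8 and 10 are not shown). The members lie from 0.94 (Pkp3) to 3.58 (Scel), to the right of the bulk of genes around -0.04.

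The members were set against the share of all measured genes with a larger difference in the direction of skin. This share was 4.52% for Eppk1, 5.34% for Jup, 5.46% for Ppl, 6.35% for Evpl, 6.67% for Pkp1 and 7.44% for Pkp2. It was 8.34% for Dsp, 11.3% for Perp and 15.02% for Pkp3. No member was therefore among the extremes of the array in this direction.

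The scaling of the arrays bears on all 10 genes at once. With 8 spike-in transcripts in place of the 75th percentile, every difference was lower by 0.62, the median over the members was 1.63, and Perp at 0.66 joined Pkp3 at 0.32 within 2-fold. Under this scaling all 10 stayed higher in skin, beside 3579 of all 17409 measured genes. Past 2-fold were 9.04% of all genes in the direction of skin and 32.4% in the direction of tooth.

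The tissue labels were checked against cell type markers. All 7 ameloblast markers and all 6 markers of dentin and bone passed 2-fold in the direction of tooth, and Klk4, an enamel protease measured on both arrays, had a difference of -5.92. On the skin array 6 of the 7 ameloblast markers were not well above background. All 11 cornified envelope genes were well above background in skin, and 10 of them were at least 2-fold higher there. Of these 11, 7 were also measured in tooth, among them Flg (filaggrin, -3.21 in tooth, 9.69 in skin) and Lor (loricrin, 1.44 and 10.56).

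Markers of epithelium moved with the members in these arrays. All 11 pan-epithelial markers were well above background on both arrays and all 11 were higher in skin, 6 of them at least 2-fold, with a median of 1.10 and a range from 0.06 to 2.72. Summed over the list on the linear scale, their level was 9.15 in tooth and 10.12 in skin (log2). Most of this sum came from Krt5, at 8.82 in tooth and 9.76 in skin, so that it says little of the other markers. Rab25, an epithelial trafficking GTPase, and Esrp2, an epithelial splicing regulator, led the list with 2.72 and 2.71. Cdh1, which encodes E-cadherin, differed by 0.06, and Trp63, which encodes the epithelial factor p63, by 0.16. With spike-in scaling 8 of the 11 markers were higher in skin, 3 at least 2-fold, and the median was 0.48. Of the 10 members, 8 fell within the range of the pan-epithelial markers, while Eppk1 and Scel lay above it.

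When the median of the pan-epithelial markers was set to 0, the members had a median of 1.15 and 6 of the 10 were at least 2-fold higher in skin (Jup, Pkp1, Evpl, Ppl, Eppk1 and Scel), beside 7.04% of all genes. Under this setting Scel was at 2.48, Eppk1 at 1.99, Jup at 1.59 and Ppl at 1.52. Pkp2 at 0.89 and Dsp at 0.67 were within 2-fold, Perp was at 0.18, and Pkp3 changed sign to -0.16. The part of these markers' shift in the members' differences was otherwise not tested.

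**Figure D3:**
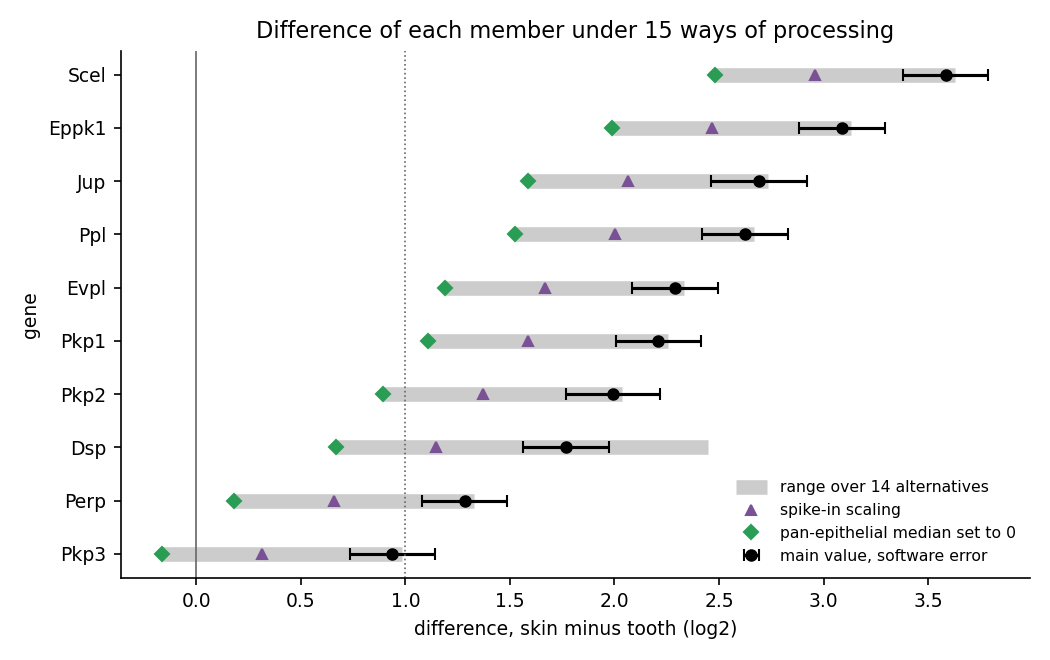
Difference of each member, skin minus tooth in log2, with the main value and its software error (black), the range over 14 alternatives (grey bar), and the values with spike-in scaling (triangles) and with the pan-epithelial median set to 0 (diamonds). Scel was highest and Pkp3 lowest in all 15 settings, and Pkp3 alone crossed 0, at -0.16. Settings that shift a whole array, or change only filters or dim values, could not alter this order.

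Markers of other cells in the samples also moved. All 7 muscle markers (median 3.38), all 5 fat markers (4.07) and all 5 melanocyte markers (6.68) were at least 2-fold higher in skin. Summed muscle markers were at 3.16 in tooth and 6.49 in skin. In the other direction, 5 of 8 mesenchyme markers were at least 2-fold higher in tooth, with a median of -2.46 and sums of 10.61 in tooth and 8.51 in skin, and 4 of 6 endothelial markers were (median -2.15, or -0.93 with normexp). The summed endothelial level nevertheless was 5.01 in tooth and 5.26 in skin, as Kdr (0.43) and Pecam1 (0.50) were higher in skin by the probes used. This sum rested mainly on Kdr, at 4.78 in tooth and 5.21 in skin by its brightest probe. A second Kdr probe gave -2.19, and the mean over the Kdr probes was -0.88, so the direction of Kdr and of the sum depended on the probe. With spike-in scaling Kdr was at -0.19 and Pecam1 at -0.12. The sums for fat were 0.85 in tooth and 4.04 in skin, and those for melanocytes 1.20 and 7.43. Lists for macrophages (median -0.08), Schwann cells (0.19), cartilage (-0.33) and oral mucosa (-1.01) were mixed in direction. Dsp, Jup and Pkp2 are also known from cells other than keratinocytes, such as heart muscle and, for Jup, endothelium, and the part of these cells in the members' differences was not tested.

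The cadherins to which the plaque proteins bind were split in direction. All 9 were measured, with 7 past 2-fold in the direction of skin, 2 past 2-fold in the direction of tooth and a median of 3.73. The median was 2.85 with genes measured on both arrays only. With normexp it was 2.35, beside 1.999 for the members. The desmogleins of differentiated epidermis, Dsg1a, Dsg1b and Dsg1c, were higher in skin by 3.73, 4.25 and 4.21. They are close copies of each other, and probes may read more than 1 of them. Dsg3, a desmoglein of the deeper layers and of mucosa, was higher in skin by 2.85 and Dsc3 by 1.47. Dsc1, the desmocollin of upper layers, was not well above background in tooth and was at least 199-fold higher in skin in the main setting. Dsg4, known from hair and upper epidermis and likewise not well above background in tooth, was at least 11.1-fold higher. These bounds do not hold under normexp, which gave smaller differences of 5.42 for Dsc1 and 2.21 for Dsg4 (log2). A second Dsg4 probe was well above background on neither array.

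Dsg2 and Dsc2, the pair of cadherins that simple epithelia use, were the exceptions. Dsg2 measured 1.11 in tooth and -0.01 in skin (-1.11), and Dsc2 1.38 and -0.92 (-2.29). Neither changed direction under any of the 14 alternatives, though those for filters and dim values could not alter genes well above background on both arrays. A second Dsg2 probe gave -0.67, and normexp gave -0.96 for Dsg2. With normexp, the mean over probes or the probe with the smallest difference, 1 cadherin in place of 2 was past 2-fold in the direction of tooth. No plaque or cross-linking gene shared that direction in the main setting, Pkp2 included, which is the plakophilin found with Dsg2 and Dsc2 in simple epithelia and measured 1.99.

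Relatives of the members within their own protein families were measured as well. Among the other armadillo genes, none of the 5 was past 2-fold, with a median of -0.36. Pkp4, which is found at adherens junctions as well as desmosomes, was at -0.36, and Ctnnb1 (β-catenin, the closest relative of plakoglobin) was at -0.77. Ctnnd1 (p120 catenin) was at 0.32, Arvcf at 0.21 and Ctnnd2 at -0.64. The highest of these 5 differences was 0.32, and the lowest among the 10 members was 0.94 (Pkp3). That value of Pkp3 was itself exceeded in the direction of skin by 15.02% of all measured genes. Ctnnd1 and Arvcf were below 0 with spike-in scaling, at -0.30 and -0.42.

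Of the other plakins, Plec (plectin, a linker of keratin at hemidesmosomes) was at 0.84 and Macf1 (a linker of actin and microtubules) at -0.26. Dst, whose isoforms serve hemidesmosomes, nerve and muscle, was at 1.33 by its brightest probe but at -1.96 and -1.88 by its other probes, so that its direction depended on the probe. Dsp, by contrast, kept 1 direction over both its probes.

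Adherens junctions and hemidesmosomes, the other anchoring junctions of these epithelia, had medians nearer 0 than the members. Over 9 adherens junction genes the median was 0.32, and only Afdn, an actin-binding adaptor, was past 2-fold in skin (1.03). Over 6 hemidesmosome genes the median was 0.26. Col17a1 (0.72), Itga6 (-0.20), Itgb4 (-0.82) and Cd151 (-0.95), which encode hemidesmosome components or their partner, were within 2-fold by their brightest probe. The second Itga6 probe gave -4.39 and the second Cd151 probe -1.13, so that with the mean over a gene's probes 2 hemidesmosome genes passed 2-fold in the direction of tooth and the median was -0.83. By the brightest probes, the adherens junction and hemidesmosome medians were -0.30 and -0.36 with spike-in scaling, whereas the members' median was then 1.63. Lists of 3 to 11 genes from 1 array per tissue describe these arrays, and the difference between lists was not tested.

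**Figure D4:**
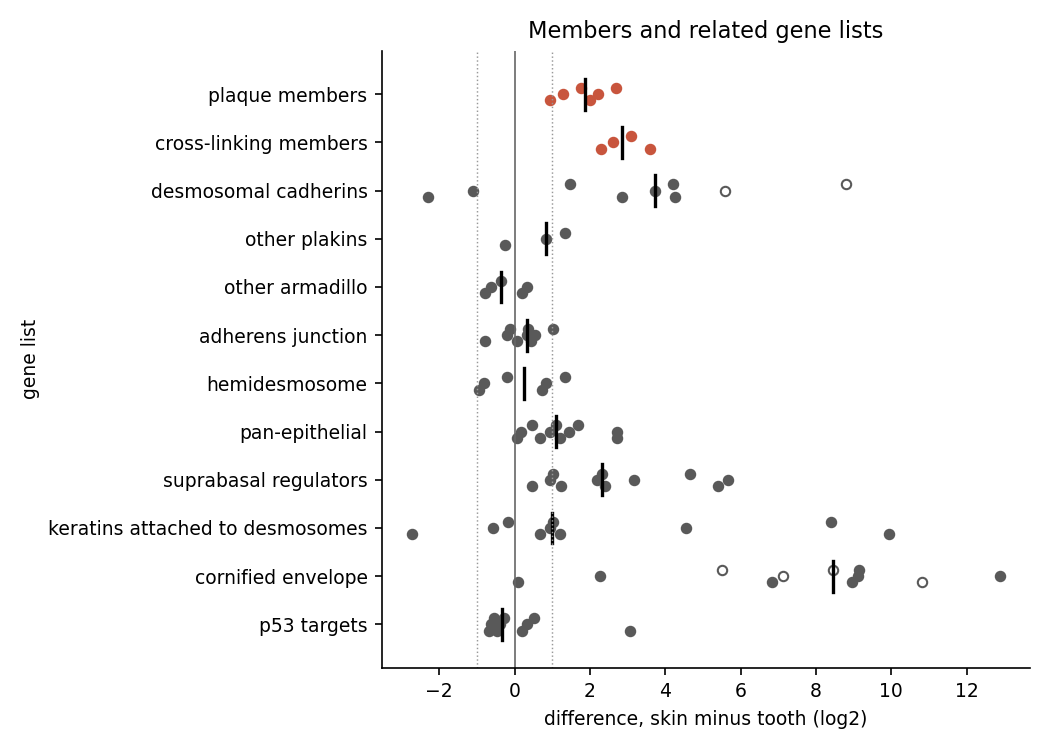
Difference of each measured gene, skin minus tooth in log2, by gene list, with members in red, other genes in grey, open circles for genes well above background on 1 array only, vertical bars for list medians and dotted lines at 2-fold. Plaque members (median 1.88) and cross-linking members (2.86) lie between the adherens junction list (0.32) and the cornified envelope list (8.46).

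The 10 listed keratins that desmosomes anchor ran from -2.73 to 9.93, with a median of 0.99. The basal pair Krt5 and Krt14 was at 0.94 and 1.19. The suprabasal pair Krt1 and Krt10 was at 9.93 and 8.39. Krt15, a basal and follicle keratin, was at 4.56, so the basal keratins differed among themselves. Krt18, a keratin of simple epithelia, was the only one of the 10 keratins at least 2-fold higher in tooth (-2.73). Members' differences thus lay above those of the basal keratin pair, with the exception of Pkp3, equal to Krt5 at 0.94 to 2 decimals, and below those of the suprabasal pair.

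Genes of the finished envelope were shifted far more than the plakins of its scaffold. The cornified envelope list had a median of 8.46, led among genes measured on both arrays by Flg (12.89), Sprr1b (9.13), Lor (9.11) and Cdsn (8.95). That median is the value of Tgm5, whose tooth signal was not well above background. It was 6.48 with normexp and 7.39 with dim values at their bound. The cross-linking enzymes of the envelope were uneven, with Tgm1 at 2.26 (0.51 in tooth, 2.77 in skin) and Tgm3 at 0.10, although the mean over the Tgm3 probes was 2.86. Tgm5 was not well above background in tooth and was at least 168-fold higher in skin in the main setting. Normexp, with its offset, gave a smaller difference of 5.25 (log2). All 11 listed regulators of suprabasal differentiation were higher in skin, 9 of them at least 2-fold, with a median of 2.31. Grhl1 (5.67), Ovol1 (5.39), Cebpa (4.66) and Grhl3 (3.16) led them.

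Location on the chromosome was examined through the nearest named gene on each side of each member, 20 genes in all. Of these, 17 were measured, with a median of -0.10. There were 12 within 2-fold, 3 past 2-fold in the direction of tooth and 2 in the direction of skin. The latter were Tnnt2, a troponin gene beside Pkp1 (3.72), and BC024139 beside Eppk1 (3.29). Beside Jup, Hap1 was at 0.72 and P3h4 at -1.59. These neighbours were named after their values were seen.

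**Figure D5:**
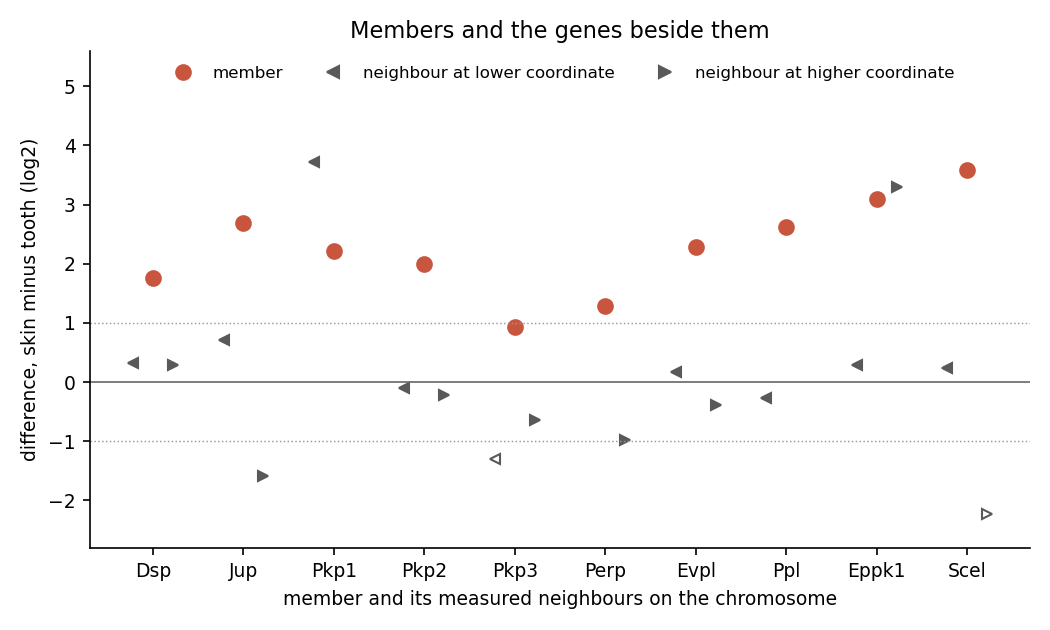
Difference, skin minus tooth in log2, of each member (circles) and of the measured genes next to it at lower and higher coordinates (triangles, open where only 1 array was well above background), with dotted lines at 2-fold. A neighbour exceeds its member for Pkp1 (Tnnt2, 3.72) and for Eppk1 (BC024139, 3.29), and the other measured neighbours lie below their member.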

How the data were processed

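Total RNA of P0 tooth and skin was measured on 1 Agilent array per tissue (60-base probes, single colour). Per the file headers, the deposited values were intensities from Agilent Feature Extraction (version 10.7.3.1 in the submitters' processing notes), already background-subtracted and detrended by the software. The table the authors deposited beside them held 1 ratio per spot, the processed intensity over a single factor per array, and was used as an alternative. The same output gave the software's error and yes-or-no calls for outliers and background (scored as other values per the file headers).

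From these, outlier spots were dropped, spots of a probe were averaged as log2 values, and each array's 75th percentile over non-control probes was subtracted, after the percentile shift of the study's methods. A gene took its probe with the highest mean, and counted as measured if, in tooth or in skin, over 50% of that probe's spots were called well above background. A gene seen on 1 array was given as a bound against the lowest value called well above background on the other, -4.52 in tooth and -3.73 in skin. Of 55675 probes on both arrays, 56.7% in tooth and 52.5% in skin were well above background, and 75th percentiles were 427.9 and 276.1. Among probes with at least 8 spots the median spot SD was 0.076 and 0.086 (log2), an SD of 0.12 for a difference. The number of arrays limits the precision: no test was run.

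Members, gene lists and the 2-fold threshold were chosen with earlier results of these data known. All members, all measured cadherins, other plakins and other armadillo genes were named, with up to 4 genes by size from each other list and genes measured on 1 array as bounds. Cdh1, Trp63, Krt5, Krt14, Col17a1, Itga6, Kdr, Pecam1, Tgm1, Tgm3 and the chromosomal neighbours lie outside this rule and were named after their values were seen. Names came from GRCm38.p6 RefSeq, probe coordinates (mm9) from the files. No protein sequence was used here. Python 3.11.15, numpy 2.4.6, pandas 2.3.3 and limma 3.58.1 (normexp, offset 50) were used. The scaling step was tested on simulated data. The 14 alternatives covered background, scaling, source, filter, probes and dim values.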

Additional observations from a re-analysis of the deposited data

How the results depend on the processing

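All 10 members stayed higher in skin under 13 of the 14 alternatives, and under the other, the pan-epithelial median set to 0, Pkp3 turned to -0.16. The alternatives for filters and dim values could not alter the members, since all were well above background on both arrays. The deposited table could only shift every difference by the same amount. The members' median of 2.25 became 1.999 with normexp, 2.06 with quantile normalization, 2.001 with a median shift, 1.63 with spike-in scaling, 1.15 with the pan-epithelial median set to 0 and 2.37 with the mean over a gene's probes, and was within 0.05 of 2.25 otherwise. The count of members at least 2-fold higher in skin, 9, was 8 with quantile normalization or spike-ins and 6 with the pan-epithelial setting, and none was at least 2-fold higher in tooth under any of them. Over all genes, 2466 in skin and 2691 in tooth were past 2-fold in the main setting. Spike-ins gave 1573 and 5639, quantile normalization 2287 and 2915, and the pan-epithelial setting 1226 and 10102. A median shift gave 2020 and 3500, normexp 1743 and 1665, and no filter on dim probes 3676 and 2885. The median gene moved by -0.62, -1.10, -0.25 and 0.22 (log2) with spike-ins, the pan-epithelial setting, the median shift and no filter. For Dsp the probe rule gave the widest spread upward, to 2.45 with the mean over probes. The oral mucosa median of -1.01 turned to 0.999 with genes measured on both arrays only, where fewer genes enter, and to 0.034 with dim values at their bound, which by construction shortens differences of dim genes. The small medians of cartilage and Schwann cell markers also turned, cartilage (-0.33) to 0.70 without a filter or with genes measured on both arrays only and to 0.05 with normexp, and Schwann cells (0.19) to -0.06 with a median shift, -0.44 with spike-ins and -0.92 with the pan-epithelial setting. That setting also put the medians of other plakins (-0.26), adherens junctions (-0.78), hemidesmosomes (-0.84) and keratins (-0.11) below 0. No paired analysis was possible because each tissue had 1 array. Signals near background, as for Jup and Pkp2, limit how well the size of a difference is known.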
